A study of Mus musculus with 4 samples.

Results

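The glycolysis and hypoxia response genes were examined in cultured smooth muscle cells of the mouse aorta, on a list of 34 genes. The list holds glucose transporters, the enzymes that turn glucose into lactate, the oxygen-sensing hydroxylases, both HIF alpha subunits and genes that HIF is known to induce. Members were the array probes whose gene name in the scanner files was on the list. Of the 34 genes, 33 had a probe of that name, with 59 probes in all. Past the filter on dim spots were 43 of these probes, for 31 genes out of 12366 tested. The files use the older names Pkm2 for Pkm and Ero1l for Ero1a, which are kept here.

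The cells of the mutant group came from animals with the genotype Atg7F/F SM22α-Cre+, and those of the control group from Atg7+/+ SM22α-Cre+ animals, both of the strain labelled C57LB/6. Atg7 encodes an E1-like enzyme needed to form autophagosomes, the vesicles that carry cytoplasm to the lysosome. Cre was driven in both groups by SM22α, a smooth muscle promoter, so the labelled genotypes differed only in the Atg7 allele. Whether the cultures differed in other ways is not given in the labels. The culture medium held 10% serum, and cells were used between passages 4 and 10, and the passage of each extract is not given in the labels. Each group had 2 biological replicates. An Atg7F/F extract and the Atg7+/+ extract of the same number were hybridised together on 2 arrays with exchanged dyes, which made 4 arrays. Ages, and the number of animals behind an extract, are not given in the labels.

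Glycolysis breaks a glucose molecule down to pyruvate, and lactate dehydrogenase turns pyruvate into lactate that leaves the cell. When oxygen is low, HIF alpha subunits escape the prolyl hydroxylases of the EGLN family, pair with ARNT and bind hypoxia response elements, whose core can read ACGTG. Many glycolytic enzymes are HIF targets, and proliferating smooth muscle in culture relies largely on glycolysis.

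Promoter sequence is shown because the list joins genes through a common regulator. Each line gives the 250 bases before a transcription start in RefSeq (build GRCm38.p6), 5′ to 3′ on the gene's strand, with every ACGTG and its reverse complement CACGT in capitals. Ero1l had the highest ratio between genotypes, Slc16a3 the widest gap between replicates, Ldha the most sites among the members, and Hif1a encodes the founding HIF subunit. The windows are chr14:45318573-45318822 on the minus strand, chr11:120948817-120949066 on the plus strand, chr7:46845554-46845803 on the plus strand and chr12:73907617-73907866 on the plus strand.
Ero1l: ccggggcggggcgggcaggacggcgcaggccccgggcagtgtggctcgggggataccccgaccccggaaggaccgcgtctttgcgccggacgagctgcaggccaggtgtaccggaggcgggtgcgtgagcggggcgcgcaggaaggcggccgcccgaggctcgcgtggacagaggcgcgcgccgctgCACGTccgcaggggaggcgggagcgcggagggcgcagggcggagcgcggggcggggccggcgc
Slc16a3: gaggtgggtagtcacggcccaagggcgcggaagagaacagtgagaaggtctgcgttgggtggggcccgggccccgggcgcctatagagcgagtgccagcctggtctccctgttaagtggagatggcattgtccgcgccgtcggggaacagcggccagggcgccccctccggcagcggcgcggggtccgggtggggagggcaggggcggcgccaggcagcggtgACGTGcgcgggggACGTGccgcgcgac
Ldha: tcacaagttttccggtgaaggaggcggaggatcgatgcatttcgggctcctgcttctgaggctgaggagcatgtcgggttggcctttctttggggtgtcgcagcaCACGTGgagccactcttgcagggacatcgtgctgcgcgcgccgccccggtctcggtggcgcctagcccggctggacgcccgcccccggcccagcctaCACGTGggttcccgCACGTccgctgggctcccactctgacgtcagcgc
Hif1a: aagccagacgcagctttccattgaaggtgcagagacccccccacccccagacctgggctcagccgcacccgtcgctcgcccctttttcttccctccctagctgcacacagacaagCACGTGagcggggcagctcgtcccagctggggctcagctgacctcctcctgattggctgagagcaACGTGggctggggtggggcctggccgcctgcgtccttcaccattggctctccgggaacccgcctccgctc

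Overlapping matches counted as 1 site, the Ero1l window held 1 site, the Slc16a3 and Hif1a windows 2 each and the Ldha window 3. The window of the other Ldha start held 0 sites, and the one with the most sites was shown. The palindrome CACGTG, an E-box read by other factors as well, contains the core on both strands. It made up 2 of the 3 Ldha sites and 1 of the 2 Hif1a sites. Of the members, 31 had a RefSeq start in the table, and 17 of them (54.8%) held the core before at least 1 start, against 18.5% of 27025 genes. Over single starts the share was 43.8% of 48 for the members, against 16.6% of all 32851. The list was drawn up to include known HIF targets, so its higher share is not an independent result. Base composition of the promoters was not matched. A match is no evidence of binding. The 16 measured members with the core had a median log2 ratio of 0.10 and the 12 without it one of -0.01. Above 0 were 9 and 5 of them. Epas1, Slc2a3 and Ndrg1, with ratios of -0.52, -0.21 and 0.03, had no RefSeq start to search and are in neither group.

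Log2 ratios below are Atg7F/F over Atg7+/+. Each is the mean of the 2 replicates ± SD (n = 2), and the ratio of a replicate averages its dye swap. In every channel, 43.3% to 45.5% of probe spots were well above background and 0 were saturated. The number of arrays limits the precision. Atg7 itself had a mean of -1.22 ± 0.07 and was lower on all 4 arrays, by a probe at chr6:114726985-114727044 (mm9). The floxed exon is not named in the labels, so the place of the probe relative to the deletion is unknown. Of 8 smooth muscle markers, 7 passed the filter, among them Acta2, Myh11 and Tagln, while Myocd did not. The 7 had a median ratio of -0.145, with 2 positive and 5 negative, and 0 were higher and 2 lower on all 4 arrays. Their summed linear signal was 257000 and 195000 in Atg7F/F, against 268000 and 237000 in Atg7+/+.

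The glycolysis and hypoxia genes had ratios on both sides of 0, with 15 of the 31 measured members positive and 16 negative. Their median ratio was -0.01, beside 0.00 over all genes tested. It was 0.03 in replicate 1 and 0.10 in replicate 2, and 0.12 with median centring of the arrays in place of loess, which gave 0.04 over all genes. Single members ran from -0.52 for Epas1 to 0.66 for Ero1l. Their median size, regardless of sign, was 0.12, beside 0.08 over all genes. By limma with Benjamini-Hochberg adjustment over all genes, 0 members were called higher and 0 lower, where the call rate over all genes was 0.0% in each direction and every member's adjusted p was 1.0. The targeted gene Atg7 was not called either. At an unadjusted limma p below 0.05 there were 2 members, Ero1l and Epas1, against 2.98% of all genes.

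Higher on all 4 arrays were 6 members (Ero1l, Gpi1, Hk2, Pfkfb4, Pfkm and Pkm2), where 10.6% of all genes were. Lower on all 4 were 4 members (Egln1, Epas1, Hk1 and Slc2a3), where 9.95% were. When each array was centred on its median in place of loess these counts were 2 and 0, and those over all genes were 601 and 265, against 1309 and 1230 with loess. By size, 1 member, Ero1l, was at least 1.5-fold apart on average, against 1.65% of all genes.

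**Figure D1:**
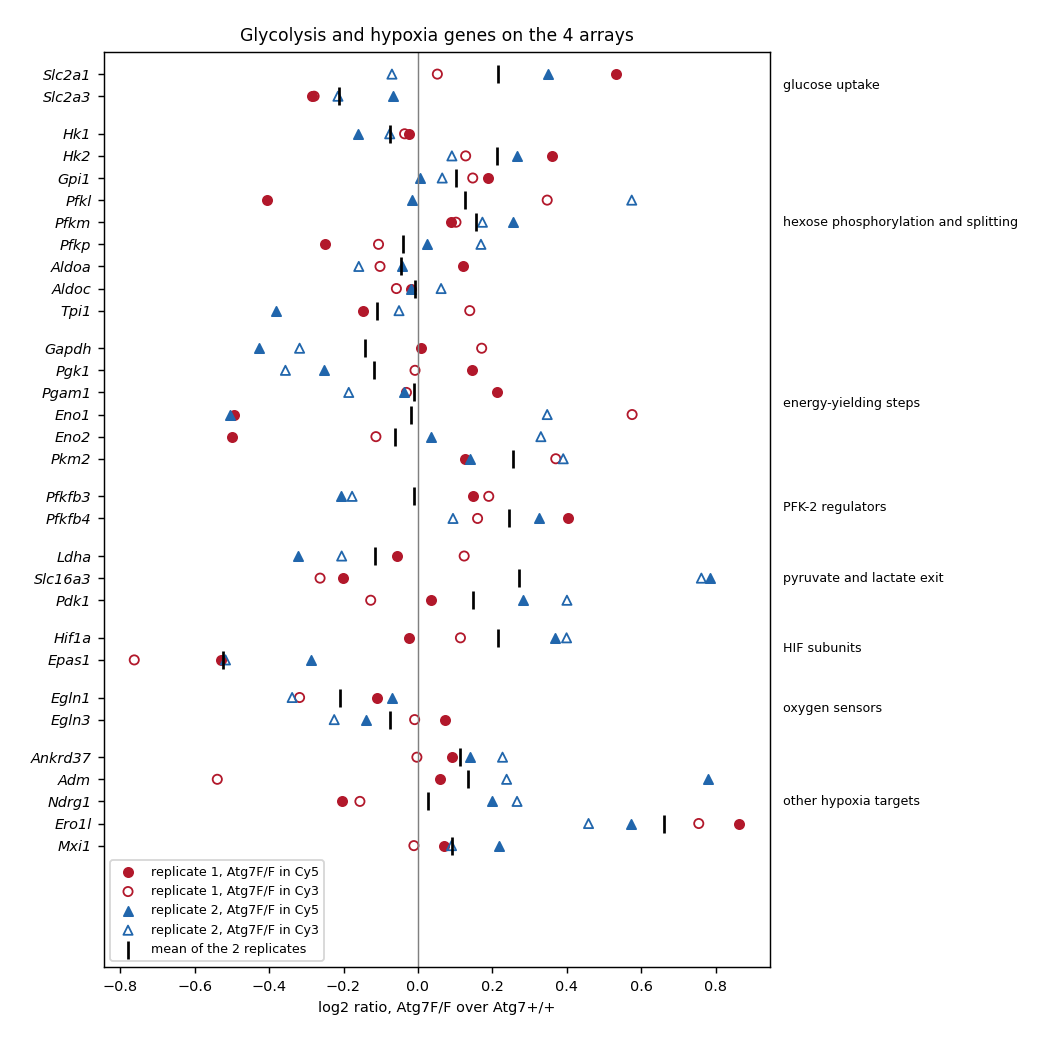
Log2 ratio of Atg7F/F over Atg7+/+ (horizontal axis) for the 31 measured genes by role (vertical axis), with circles for replicate 1, triangles for replicate 2, filled symbols for Atg7F/F in Cy5, open ones for Atg7F/F in Cy3, and a bar for the mean of the 2 replicates. Ero1l lies between 0.46 and 0.86 on the 4 arrays and Epas1 between -0.76 and -0.29, while the Slc16a3 values of the 2 replicates lie on opposite sides of 0.

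Among the glucose transporters, Slc2a1 (GLUT1) and Slc2a3 (GLUT3) had ratios of opposite sign. For Slc2a1 the log2 signal was 10.63 in replicate 1 and 10.69 in replicate 2 of Atg7F/F, against 10.34 and 10.55 in Atg7+/+. Both Atg7F/F extracts were above both Atg7+/+ extracts, and the ratios of 0.29 and 0.14 had a mean of 0.22 ± 0.11 (limma, unadjusted p 0.102). The ratios on the single arrays followed the dye in size, with 0.53 and 0.05 in replicate 1 and 0.35 and -0.07 in replicate 2 for Atg7F/F in Cy5 and in Cy3. Slc2a3 had signals of 7.12 and 6.99 in Atg7F/F, against 7.40 and 7.13 in Atg7+/+, with ratios of -0.28 and -0.14 and a mean of -0.21 ± 0.10 (limma, unadjusted p 0.104). Here both Atg7F/F extracts were below both Atg7+/+ extracts. On the 4 arrays the ratio of Slc2a3 was -0.285, -0.279, -0.066 and -0.215. The mean was -0.34 with an offset of 0 and -0.45 with the scanner software's processed signals, where the unadjusted limma p was below 0.05. Neither of its other probes passed the filter.

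The enzymes that phosphorylate and split hexose had ratios between -0.11 and 0.21, and 0 of the 9 were called, where 0.0% of all genes were. Hexokinases trap glucose in the cell as glucose 6-phosphate, and the isoform Hk2 is the one known to respond to insulin and hypoxia. Hk2 gave 10.41 and 10.39 in Atg7F/F, against 10.17 and 10.21 in Atg7+/+. The genotypes did not overlap, and the ratio of 0.21 ± 0.05 (replicates 0.24 and 0.18) was positive on all 4 arrays, at 0.36, 0.13, 0.27 and 0.09. Hk1, the widely expressed isoform, had -0.08 ± 0.06 (replicates -0.03 and -0.12) and was lower on all 4 arrays by its brightest probe, but had 0.04 with median centring. Its 3 other probes past the filter gave -0.17, -0.19 and 0.05. The signals of the last of these, 6.45 to 6.55, lay near the lowest scored as well above background.

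Of the phosphofructokinase subunits, which form the committing step, Pfkm had 0.16 ± 0.08 and was higher on all 4 arrays, Pfkl 0.13 ± 0.22 and Pfkp -0.04 ± 0.19. Replicates 1 and 2 gave 0.10 and 0.21 for Pfkm, -0.03 and 0.28 for Pfkl, and -0.18 and 0.10 for Pfkp. The sign of Pfkl followed the dye. With Atg7F/F in Cy5 it was -0.41 and -0.02, and with Atg7F/F in Cy3 it was 0.35 and 0.57. Gpi1, the glucose 6-phosphate isomerase, had 0.10 ± 0.09, with 0.17 and 0.04 in the replicates, and was also higher on all 4. With median centring Gpi1 had 0.23 and Pfkl 0.19. The aldolases Aldoa and Aldoc, which cleave fructose 1,6-bisphosphate, had -0.05 ± 0.08 and -0.01 ± 0.04, and the triose phosphate isomerase Tpi1 had -0.11 ± 0.15. Replicates 1 and 2 gave 0.01 and -0.10 for Aldoa, -0.04 and 0.02 for Aldoc, and 0.00 and -0.21 for Tpi1. Aldoa and Tpi1 had positive ratios with median centring, at 0.12 and 0.02. The signals of Aldoc, 6.56 to 6.73 over the extracts, lay near the lowest scored as well above background. With processed signals its ratio was -0.12.

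In the later steps of glycolysis, where ATP and NADH are made, the ratios ran from -0.14 to 0.26. With 0.0% of all genes called in each direction, 0 of the 6 enzymes were called. Of them, 4 (Gapdh, Pgk1, Pgam1 and Eno1) had positive ratios in replicate 1 and negative ones in replicate 2. Gapdh, which makes NADH, gave 0.09 in replicate 1 and -0.37 in replicate 2, and the phosphoglycerate kinase Pgk1 gave 0.07 and -0.30. The mutase Pgam1 gave 0.09 and -0.11, and Eno1 0.04 and -0.08. With median centring the means of these 4 were 0.01, 0.01, 0.13 and 0.04, so their sign depended on how the arrays were scaled.

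The enolases convert 2-phosphoglycerate to phosphoenolpyruvate. Eno1 had -0.02 ± 0.08, and its sign followed the dye, with -0.49 and -0.50 for Atg7F/F in Cy5 and 0.58 and 0.35 for Atg7F/F in Cy3. Only Eno1 and Pfkl of the 31 members did so on all 4 arrays, where 13.7% of all genes did. Eno2, the isoform known from neurons, had -0.06 ± 0.35, with -0.31 in replicate 1 and 0.18 in replicate 2.

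Pkm2, the pyruvate kinase gene, closes the pathway. Its brightest probe had signals of 13.24 and 13.61 in Atg7F/F, against 13.00 and 13.34 in Atg7+/+. The ratio was 0.25 in replicate 1 and 0.26 in replicate 2, with a mean of 0.26 ± 0.01 (limma, unadjusted p 0.0523) and positive on all 4 arrays, at 0.13, 0.37, 0.14 and 0.39. Within each replicate the Atg7F/F extract was higher, but the Atg7F/F extract of replicate 1 lay below the Atg7+/+ extract of replicate 2. The gene makes the M1 and M2 forms by alternative splicing, and the files do not say which form a probe reads. The second probe past the filter gave -0.01 ± 0.27, with 0.19 in replicate 1 and -0.20 in replicate 2. Averaged over both probes, Pkm2 had 0.12.

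Of the bifunctional PFK-2 enzymes, which set the level of fructose 2,6-bisphosphate, the activator of phosphofructokinase, Pfkfb4 had signals of 8.91 and 8.99 in Atg7F/F, against 8.63 and 8.78 in Atg7+/+. The 2 Atg7F/F extracts were above both Atg7+/+ extracts, and the ratio was 0.25 ± 0.05 (replicates 0.28 and 0.21; limma, unadjusted p 0.0623), at 0.40, 0.16, 0.32 and 0.09 on the 4 arrays. Pfkfb3 had -0.01 ± 0.26, from 0.17 in replicate 1 and -0.19 in replicate 2. In all, 4 members (Ero1l, Hk2, Pfkfb4 and Slc2a1) had both Atg7F/F extracts above both Atg7+/+ extracts, where 11.4% of all genes did. The reverse held for 1 member, Slc2a3, where 10.0% of all genes did.

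Slc16a3, Ldha and Pdk1 act on the fate of pyruvate or lactate, and each had ratios of opposite sign in the 2 replicates. Slc16a3 encodes MCT4, the transporter that carries lactate out of glycolytic cells. In log2 units, the signal of Slc16a3 was 10.50 and 12.38 in Atg7F/F, against 10.74 and 11.61 in Atg7+/+. The signal was higher in replicate 2 in both genotypes, by 1.88 in Atg7F/F and 0.88 in Atg7+/+, and the genotypes overlapped.

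The ratio of Slc16a3 was -0.23 in replicate 1 and 0.77 in replicate 2, and dye swaps differed little, with -0.20 and -0.26 in the first pair of arrays, then 0.79 and 0.76 in the other. The mean of 0.27 ± 0.71 (limma, unadjusted p 0.422) was smaller than the spread between replicates. Pdk1, a kinase that inhibits pyruvate dehydrogenase, had -0.05 in replicate 1 and 0.34 in replicate 2, and its other probe 0.06 and 0.32. The mean of Pdk1 was 0.15 ± 0.27, and 0.34 with processed signals. Ldha, the lactate dehydrogenase subunit, had 0.03 and -0.26 by its brightest probe, and its mean was 0.02 with median centring.

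The probes of Ero1l, Ldha and Eno1 shown next are those whose values stand for these genes, and in the files their coordinates span more than their own length, as for a probe across a junction. Each is 60 bases long and is written 5′ to 3′. At least 1 reading frame without a stop codon was required of a probe shown here, and it is no evidence of coding sequence. In mm9 the files place them at chr14:45905723-45907426, chr7:54109426-54110355 and chr4:149618134-149618359. No annotation of that build was used, so exons and untranslated regions of other probes are not stated.
Ero1l: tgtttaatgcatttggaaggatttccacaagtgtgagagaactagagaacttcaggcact
Ldha: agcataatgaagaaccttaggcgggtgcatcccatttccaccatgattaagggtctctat
Eno1: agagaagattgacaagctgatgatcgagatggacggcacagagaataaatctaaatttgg

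The other Ldha probe past the filter gave 0.03 in replicate 1 and 0.26 in replicate 2, against 0.03 and -0.26 for the probe shown. In replicate 2, therefore, probes of the same gene had ratios of opposite sign. Probe pairs of Gapdh, Pgk1, Eno2 and Pdk1 differed by 0.11 or less between their means. Of 10 members with several probes past the filter, Ero1l had the widest gap between probe means, at 0.39, and Pkm2 and Ldha followed with 0.26 each.

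**Figure D2:**
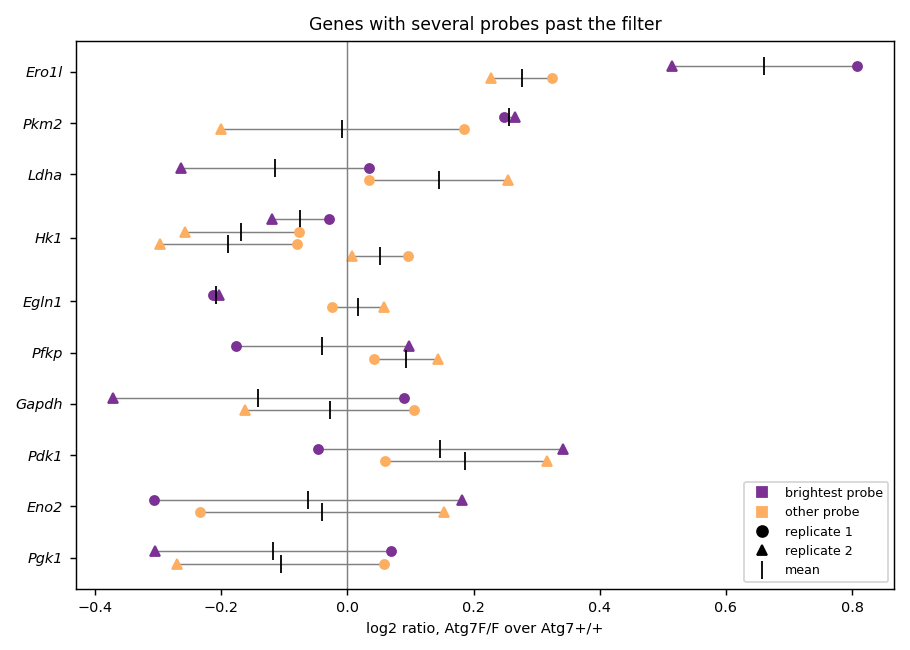
Log2 ratio of Atg7F/F over Atg7+/+ (horizontal axis) for each probe of the 10 genes (vertical axis) with several probes past the filter, with a circle for replicate 1, a triangle for replicate 2 and a bar for the mean. Both Ero1l probes lie to the right of 0 in both replicates, while the other Pkm2 probe and both Gapdh, Eno2 and Pgk1 probes have their replicates on opposite sides of 0.

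The HIF alpha subunits had ratios of opposite sign. Epas1 encodes HIF-2α, and its log2 signals were 10.91 and 11.57 in Atg7F/F, against 11.55 and 11.97 in Atg7+/+. The Atg7F/F extract was the lower one within each replicate, while the Atg7F/F extract of replicate 2 was close to the Atg7+/+ extract of replicate 1. The ratio was -0.52 ± 0.17, which is 1.44-fold lower, and it was negative on all 4 arrays, at -0.53, -0.76, -0.29 and -0.52. The unadjusted p by limma was 0.0148. Adjusted, it was 1.0, and 0.422 to 1.0 over the other settings. Leaving out a replicate gave -0.65 or -0.40. The 2 remaining Epas1 probes did not pass the filter.

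Epas1 is also known for its expression in endothelial cells, whose markers were lower in the same extracts. All 12 endothelial markers passed the filter, 10 were lower and 0 higher on all 4 arrays, and their median ratio was -0.34, with -0.23 in replicate 1 and -0.43 in replicate 2. Their summed linear signal was 12600 and 13900 in Atg7F/F, against 14400 and 25600 in Atg7+/+, and no marker of the list was below background throughout. Their part in the Epas1 result was not tested. Fewer cells of a type and less RNA per cell cannot be told apart in such extracts.

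Hif1a, the subunit best known for driving glycolytic genes, had signals of 8.14 and 8.57 in Atg7F/F, against 8.10 and 8.19 in Atg7+/+. Its ratio was 0.05 in replicate 1 and 0.38 in replicate 2, with a mean of 0.22 ± 0.24 (limma, unadjusted p 0.185). On single arrays it was -0.03 and 0.11, then 0.37 and 0.40. HIF-1α is regulated mainly through the stability of the protein, which arrays do not measure.

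The prolyl hydroxylases Egln1 (PHD2) and Egln3 (PHD3) mark HIF alpha subunits for destruction, and Egln3 is itself a hypoxia target. Egln1 gave 9.29 and 8.84 in Atg7F/F, against 9.50 and 9.04 in Atg7+/+. The ratio was nearly the same in both replicates, -0.21 ± 0.01 (limma, unadjusted p 0.0855), and negative on all 4 arrays, at -0.11, -0.32, -0.07 and -0.34. Its signal differed more between replicates than between genotypes, by -0.45 in Atg7F/F and -0.46 in Atg7+/+ for replicate 2 over replicate 1. A second Egln1 probe, with signals from 6.78 to 7.03 over the extracts, gave 0.02 ± 0.06. These signals lay near the lowest scored as well above background, and the mean over both probes was -0.10. Egln3 had 0.03 in replicate 1 and -0.18 in replicate 2.

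**Figure D3:**
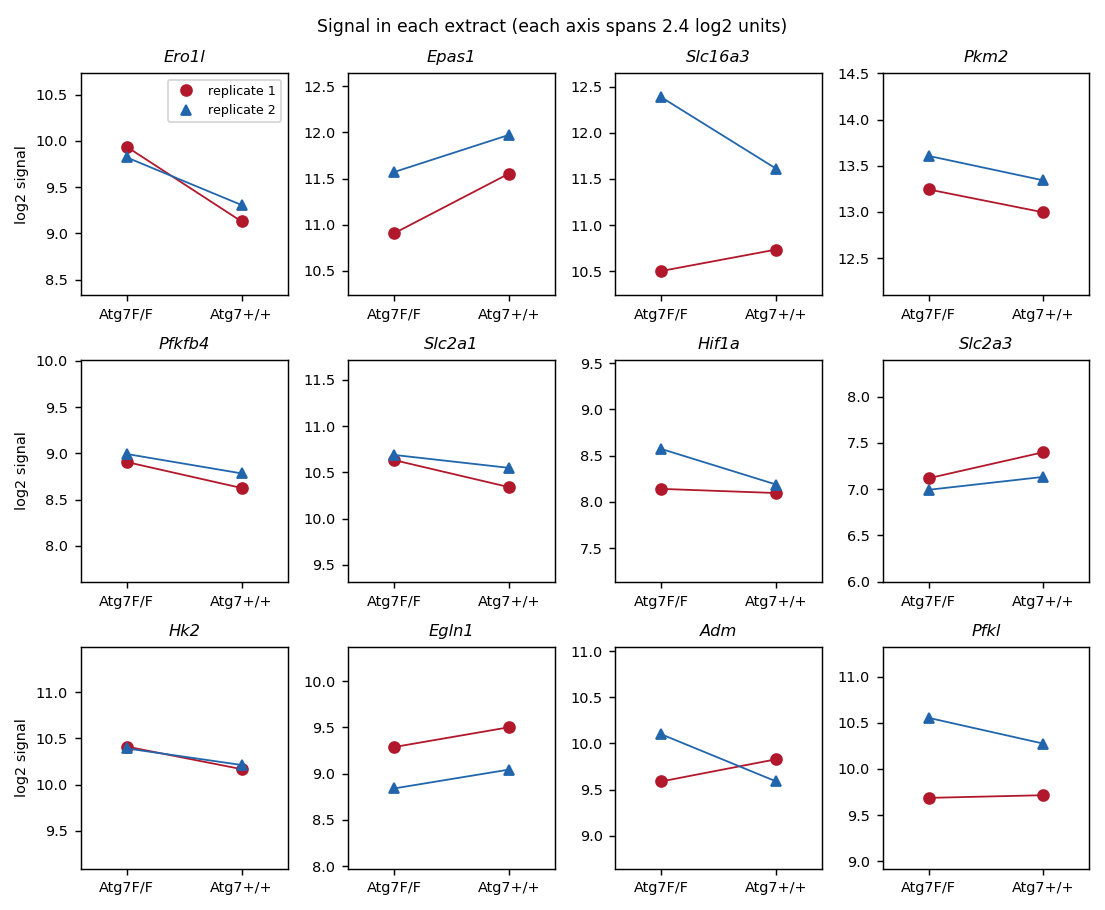
Normalized log2 signal (vertical axis) in the Atg7F/F and Atg7+/+ extracts (horizontal axis), averaged over dye swaps, for 12 genes, with circles for replicate 1, triangles for replicate 2, lines joining the extracts hybridised together, and the same span on every vertical axis. Ero1l, Hk2, Pfkfb4, Slc2a1 and Slc2a3 separate the genotypes, whereas Slc16a3, Pfkl, Pkm2 and Egln1 separate the replicates more than the genotypes.

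Among the other hypoxia targets, Ero1l had the highest ratio of all members. Ero1l encodes ERO1α, the oxidase that reoxidises protein disulfide isomerase in the endoplasmic reticulum and is induced by hypoxia and by endoplasmic reticulum stress. Its log2 signals were 9.94 and 9.82 in Atg7F/F, against 9.13 and 9.31 in Atg7+/+, and the genotypes did not overlap. The ratio was 0.81 in replicate 1 and 0.51 in replicate 2, with a mean of 0.66 ± 0.21, which is 1.58-fold higher, and positive on all 4 arrays, at 0.86, 0.75, 0.57 and 0.46.

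The unadjusted p of Ero1l by limma was 0.00955, and 1.0 after adjustment. Over the other settings the adjusted p ranged from 0.238 to 1.0 and the ratio from 0.47 to 0.81, single replicates included. The second probe gave 0.28 ± 0.07, with 0.32 in replicate 1 and 0.23 in replicate 2, positive on all 4 arrays as well. Its signals, 6.97 and 7.02 in Atg7F/F against 6.65 and 6.79 in Atg7+/+, lay near the lowest signals scored as well above background, which were 5.69 to 6.38 over the arrays.

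Adm, which encodes the vasodilator adrenomedullin, had signals of 9.59 and 10.099 in Atg7F/F, against 9.83 and 9.59 in Atg7+/+. Its ratio was -0.24 in replicate 1 and 0.51 in replicate 2, with a mean of 0.14 ± 0.53 (limma, unadjusted p 0.591). With Atg7F/F in Cy5 the arrays gave 0.06 and 0.78, and with Atg7F/F in Cy3 they gave -0.54 and 0.24, so the value differed by dye as well as by replicate. Ndrg1, a stress-responsive gene, had -0.18 in replicate 1 and 0.23 in replicate 2. Ankrd37, a small ankyrin repeat protein, had 0.11 ± 0.10 (replicates 0.04 and 0.18, and 0.18 as the mean with processed signals), and Mxi1, an antagonist of MYC, 0.09 ± 0.09 (0.03 and 0.15).

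The membrane-bound carbonic anhydrases Car9 and Car12, which acidify the space around hypoxic cells, did not pass the filter. The Car9 probe was well above background on 1 of 4 arrays in Atg7F/F and 2 of 4 in Atg7+/+. One Car12 probe was so on 2 arrays in Atg7F/F and 0 in Atg7+/+, and the other on 0 in both, so no ratio is given. Kdm3a, a histone demethylase, had no probe of that name. A probe that the files call Jmjd1a belongs to it by its RefSeq accession and gave -0.01 ± 0.07, and it is not counted among the members.

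The 2 replicates gave ratios of opposite sign for 16 of the 31 members, against 54.1% of all genes tested. Of these, 8 members were higher in replicate 1 and lower in replicate 2 (Aldoa, Egln3, Eno1, Gapdh, Ldha, Pfkfb3, Pgam1 and Pgk1), where 26.5% of all genes were. The other 8 were lower in replicate 1 and higher in replicate 2 (Adm, Aldoc, Eno2, Ndrg1, Pdk1, Pfkl, Pfkp and Slc16a3), where 27.6% were. Fibroblast markers also differed between the replicates, with median ratios of -0.35 and 0.52 in replicates 1 and 2 over all 8 markers, 0 of which were higher and 2 lower on all 4 arrays. Their summed linear signal was 8080 and 6630 in Atg7F/F, against 10300 and 6150 in Atg7+/+, with no marker below background throughout, and their part in these ratios was not tested.

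**Figure D4:**
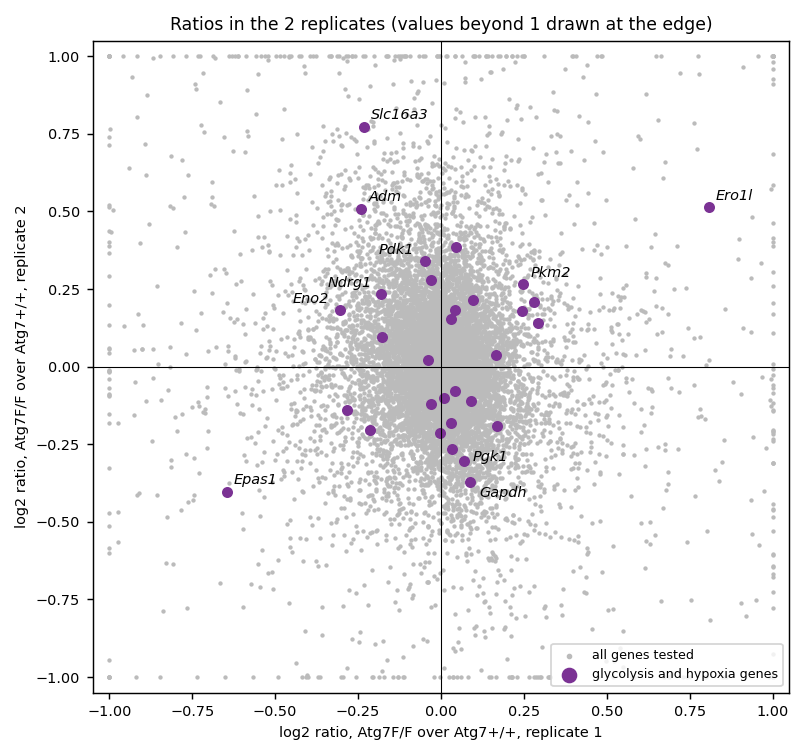
Log2 ratio of Atg7F/F over Atg7+/+ in replicate 1 (horizontal axis) against that in replicate 2 (vertical axis), with purple points for the 31 measured genes and grey ones for all genes tested, drawn at -1 or 1 where beyond. Ero1l and Epas1 keep their sign in both replicates, and Slc16a3 and Adm lie in the upper left, at -0.23 and -0.24 in replicate 1.

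Differences between the extracts of one genotype were often larger than those between the genotypes. For 19 of the 31 members the extracts of both genotypes differed between replicates by more than the size of the mean ratio, against 52.0% of all genes. In 19 members the signal was higher in replicate 2 than in replicate 1 in both genotypes, against 31.9% of all genes. It was lower in both for 2 members, Egln1 and Slc2a3, against 28.1%.

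Among the wide differences of replicate 2 over replicate 1 were those of Slc16a3, of Pfkl, at 0.87 in Atg7F/F and 0.56 in Atg7+/+, of Epas1, at 0.66 and 0.42, and of Ankrd37, at 0.66 and 0.52. Pkm2 had 0.36 and 0.35. Each replicate number also marks its own pair of arrays, so extract and array cannot be told apart here, and these counts are a description with no test.

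**Figure D5:**
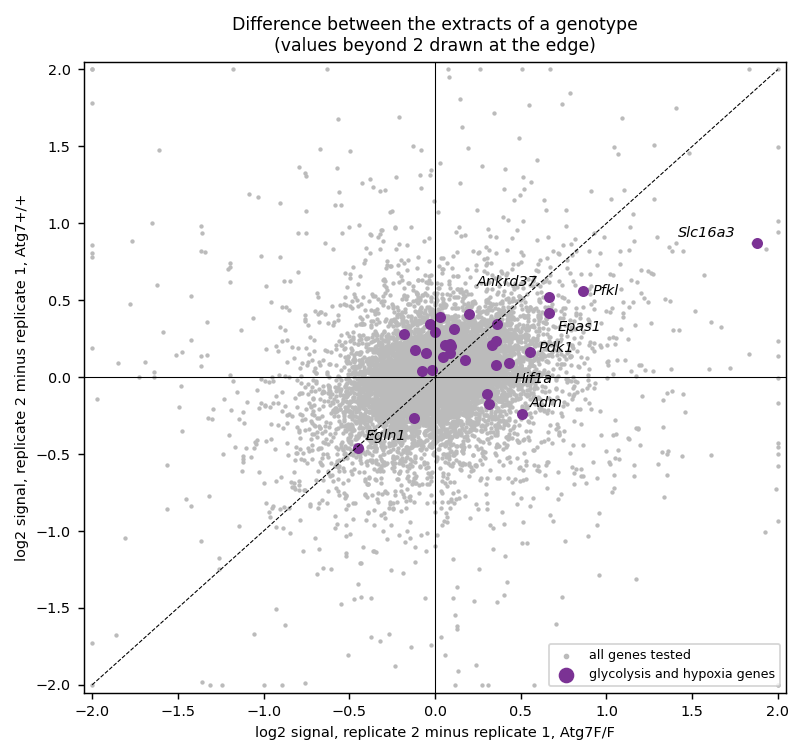
Difference in log2 signal of replicate 2 minus replicate 1 within Atg7F/F (horizontal axis) and within Atg7+/+ (vertical axis), with purple points for the 31 measured genes, grey ones for all genes tested, drawn at -2 or 2 where beyond, and a dashed line where both differences are equal. Of the members, 19 lie in the upper right and 2 in the lower left, with Slc16a3 at 1.88 and 0.88.

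The genes around the pathway were followed in further lists. Of their measured genes 0 were called in either direction, where 0.0% of all genes were. Of 29 paralogs and neighbouring enzymes of glycolysis and glycogen, 18 were measured, with a median ratio of 0.06. Higher on all 4 arrays were 3 and lower 3. Gbe1, the glycogen branching enzyme, had 0.64 ± 0.04 (limma, unadjusted p 0.00417), and replicates gave 0.67 and 0.61. Gpd2, the mitochondrial glycerol 3-phosphate dehydrogenase, had -0.46 ± 0.60, with -0.04 in replicate 1 and -0.89 in replicate 2, and Adpgk, an ADP-dependent glucokinase, had 0.25 ± 0.25.

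Of 21 genes of pyruvate and lactate fate, 17 were measured, with a median of 0.03. In this list 1 gene was higher on all 4 arrays, the dehydrogenase subunit Dld (0.13 ± 0.12), and 1 was lower, Pdha1 (-0.11 ± 0.02). Dld had 0.02 as a mean over its probes, and Pdha1 had -0.03 with median centring. Gluconeogenesis had 2 of 6 genes measured and 0 with one sign on all arrays.

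Oxygen sensing and HIF control had 15 of 17 measured, with a median of 0.02, and the 2 genes higher on all 4 arrays, Siah2 and Arnt2, had 0.10 ± 0.03 and 0.09 ± 0.04. Arnt2 had 0.20 with an offset of 0 and 0.32 with processed signals. Of 38 further HIF targets, 33 were measured, with a median of 0.05, -0.02 in replicate 1 and 0.13 in replicate 2. Higher on all 4 arrays were 3 of them and lower 2, among them the mitophagy receptor Bnip3l at 0.32 ± 0.27, the repressor Bhlhe41 at -0.26 ± 0.04 and the ubiquitin ligase adaptor Wsb1 at 0.23 ± 0.19. Bhlhe41 had -0.44 with an offset of 0 and -0.66 with processed signals. The 33 HIF targets ran from -0.79 for Angptl4, with 0.30 in replicate 1 and -1.88 in replicate 2, to 0.42. Of these 33, 24 had ratios of opposite sign in the 2 replicates, where 54.1% of all genes did. Of 16 regulators of glycolysis and growth, 15 were measured, with a median of -0.01. Higher on all 4 arrays were 3 and lower 1, with Usf1, an E-box factor, at 0.38 ± 0.39, the AMPK subunit Prkaa1 at 0.25 ± 0.14 and Tsc1, which restrains mTORC1, at -0.11 ± 0.08. With processed signals Usf1 had 0.58 and Tsc1 -0.18, and as a mean over its probes Prkaa1 had 0.13.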

How the data were processed

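RNA of 2 Atg7F/F and 2 Atg7+/+ extracts was measured on 4 two-colour arrays. The deposited scanner files hold the intensity of spots and local background before normalization and, per the file headers, a log10 ratio (red over green). The submitters' processing notes name Feature Extraction 10.1.1.1. The deposited value table holds log2 ratios by the authors. They equalled the turned ratio of processed signals within 0.001 for 100% of probes, with column medians of 0.199, -0.094, 0.081 and -0.037.

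Intensities were corrected with normexp (offset 50) and loess in limma 3.58.1 (R 4.3.3), which pulls ratios of dim spots towards 0. Dye swaps were averaged. Extract levels were taken after Aquantile scaling. Of 41174 probes, 36 with a non-uniformity outlier were left out, and a probe had to be well above background in 1 genotype on all 4 arrays, which left 17109. The brightest probe stood for a gene. Of the probes, 25097 were named through RefSeq accessions, the others and all members by the files. Ratios were tested against 0 with lmFit and eBayes, two-sided, with 3.18 degrees of freedom and Benjamini-Hochberg adjustment over 12366 genes at 0.05. The code was tested on simulated data. Each array pairs the extracts of one number, so the replicate block is part of the ratio. Extracts that share a number deviated together, at a correlation of 0.18. They also share their arrays, so this value cannot tell a pairing of the cultures from an effect of the arrays. The members and lists were chosen with earlier results of these data known. All members are named. Array values are given for those whose ratio is among the 10 largest in size or whose replicates differ by over 0.5, for Eno1 and Pfkl, whose sign followed the dye and which were singled out after their values were seen, and other probes beside theirs. Up to 3 genes with one sign on all 4 arrays are named per further list.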

Additional observations from a re-analysis of the deposited data

How the results depend on the processing

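With median centring in place of loess, 2 members were higher and 0 lower on all 4 arrays, the median ratio was 0.12 over the members and 0.04 over all genes, against -0.01 and 0.00 with loess, and 10 of the 31 members had the opposite sign, the largest of them Gapdh at -0.14 with loess. The cause was not tested. Leaving out a replicate gave a median between 0.031 and 0.097, with 3 members of opposite sign without replicate 1 and 13 without replicate 2. Over the other settings at most 2 members changed sign, and 0 members were called in any of the fits with a test. At an unadjusted limma p below 0.05 there were 1 to 8 members over these fits, against 2 as reported, with 8 when every probe was kept. Epas1 was not among them with median centring or unpaired extracts. The replicate block is part of the test reported. Without it, with extracts unpaired, limma called 1 gene, and with the pair of arrays as a random block 9, none of them a member, against 0 genes as reported, where 369 had an unadjusted p below 0.05. Every probe kept, the processed signals, the deposited table, both other background settings, the stricter filter, the mean over probes and the trended prior gave 0 genes. All arrays lay on 1 slide with 1 scan time, so no slide block could be fitted.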
